A study of Mus musculus with 41 samples.

Results

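The 40 genes described here encode the contractile apparatus of heart muscle and the proteins that surround it in the cardiomyocyte. They were taken as a list of symbols from the 22438 genes with ribosome footprint counts, and all 40 have both footprint counts and RNA values. By role they comprise 7 thick filament genes (Myh6, Myh7, Mybpc3, Myl2, Myl3, Myl4, Myl7), 6 thin filament genes (Actc1, Tnnt2, Tnni1, Tnni3, Tnnc1, Nebl) and 12 genes of titin, the M-band and the Z-disc with their partners (Ttn, Myom1, Myom2, Actn2, Ldb3, Tcap, Csrp3, Synpo2l, Sorbs2, Xirp1, Ankrd1, Smyd1). The other groups are desmin and desmoplakin (Des, Dsp), 5 genes of calcium handling (Ryr2, Atp2a2, Pln, Casq2, Slc8a1), the natriuretic peptides Nppa and Nppb, and 6 transcriptional regulators (Nkx2-5, Gata4, Hand2, Tbx5, Mef2c, Myocd).

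The sarcomere is the repeating contractile unit of striated muscle, in which myosin thick filaments pull on actin thin filaments anchored at the Z-disc, titin spans from the Z-disc to the M-band, and the troponin complex makes the sliding depend on calcium. The heart is the first organ to work in the mouse embryo, and its tube assembles sarcomeres and begins to beat at about the stage examined here. Several of these genes are also read outside the heart: fibroblasts make stress fibres with some Z-disc proteins, and neurons use calcium pumps and channels of the same families.

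HBS1L and PELO release ribosomes that stall on messenger RNA, and UPF2 takes part in nonsense-mediated decay. Embryos were Hbs1l-/- or wild type on the C57BL/6NJ strain at E8.5, with 3 libraries of 5 pooled embryos in each group; the Hbs1l-/- allele lacks exon 5 in every cell, and such embryos do not develop beyond this stage. Cerebella came from P14 mice on C57BL/6J, 3 Atoh-Cre; Hbs1l cKO and 3 Atoh-Cre; Hbs1l+/+, where the Atoh1 promoter drives Cre in granule cells and both groups carry the n-Tr20 mutation of that strain. These cKO mice are Hbs1l fl/-, so that their cells outside the granule lineage also carry 1 deleted allele. Primary embryonic fibroblasts (MEFs, C57BL/6, from E13 embryos) carried CAG-Cre ER and all received tamoxifen; they were cKO for Hbs1l or Pelo (called mutant here), labelled Upf2 cKO, or had Cre alone (control), all with the n-Tr20 mutation and 1 embryo per replicate. Before tamoxifen, the Hbs1l cKO MEFs were Hbs1l fl/-, with 1 deleted allele in every cell, while those cKO for Pelo or labelled Upf2 cKO were fl/fl. Footprints were counted in 3 cKO and 3 control MEF libraries for each gene, and RNA in 3 control, 3 Hbs1l mutant, 2 Pelo mutant and 3 labelled Upf2 cKO libraries.

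Footprint totals lay between 2634480 and 7298812 per embryo library, 10919139 and 22591768 per cerebellum library and 5782990 and 25607974 per MEF library, and RNA totals between 22713643 and 86425762 estimated counts. Hbs1l footprints fell by 3.60 (log2) in Hbs1l-/- embryos, by 1.503 in cerebella and by 4.15 in MEFs, and Pelo footprints fell by 3.78 in Pelo mutant MEFs. Upf2 itself was higher in the libraries labelled Upf2 cKO, with a log2 fold change of 1.09 in footprints and 1.33 in RNA. These values cover the whole gene, with no split into deleted and remaining exons, so they do not check the deletion, and these are called the libraries labelled Upf2 cKO throughout. Control MEF libraries with the same number in the 3 sequencing pools differed by little more than counting noise (chi-square per gene 1.11 to 1.19 over 9 pairs, against 4.03 to 12.4 over 27 pairs with different numbers), so the MEF comparisons rest on the same 3 control samples. Marker sums followed the labelled source: cerebellar granule markers reached 3457 to 5905 CPM (scaled counts-per-million) in cerebella and 22.2 to 49.5 CPM in the MEFs of the Hbs1l pool, and fibroblast markers 19280 to 31480 CPM in MEF footprints.

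How strongly each source translates these genes was first asked in the control samples, as CPM per kb of coding length (mean ± SD, n = 3). The sources were sequenced in separate batches, so that source and batch cannot be told apart and no test was made. Wild-type embryos had the cardiac actin Actc1 at 953 ± 28.1, and the atrial light chain Myl7, at 622 ± 10.2, came second. They were followed by the embryonic light chain Myl4 at 312 ± 17.4 and Tnni1, the troponin I of slow muscle and the early heart, at 215 ± 13.5. The libraries of these 4 genes did not overlap in level. The cardiac troponin I gene Tnni3 was far lower at 17.03 ± 4.6, and the α-myosin gene Myh6 stood at 29.5 ± 9.79 beside the β-myosin gene Myh7 at 24.9 ± 9.97. The groups of values of these myosin genes overlapped, but within each wild-type library Myh6 was the higher one (log2 ratio of counts 0.44, 0.17 and 0.20). At the low end stood Casq2, the calcium store protein of the sarcoplasmic reticulum, at 0.478 ± 0.154, and Myom2 at 0.0662 ± 0.0587. The short phospholamban gene Pln had no footprint in any of 6 embryo libraries, which in a wild-type library allows up to 4.73 to 7.3 CPM per kb (3 counts of its total), so that it has no place in this order.

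In control MEFs the order was another one. Ankrd1, a titin-binding repeat protein that also acts in the nucleus, led with 475 ± 49.3, against 52.5 ± 6.41 in embryos, and Atp2a2, the sarcoplasmic and endoplasmic reticulum calcium pump SERCA2, came second with 212 ± 5.43. Desmin, the intermediate filament of muscle, followed with 120.4 ± 18.6 and the natriuretic peptide Nppb with 35.7 ± 5.48. The light chain Myl3, of ventricle and slow skeletal muscle, had no footprint in the 3 control MEF libraries of the Hbs1l pool, to which these MEF levels belong, and Myl2 stood at 0.211 ± 0.196. Control cerebella were led by Atp2a2 at 676 ± 211, the sodium-calcium exchanger Slc8a1 at 77.7 ± 6.58 and Casq2 at 58.2 ± 18.5, which is known from Purkinje cells. Actc1 was 0.4205 ± 0.231 there, and Nkx2-5 had 0 counts in all 3 control libraries. Myosin-binding protein C, Mybpc3, was a sarcomere gene that cerebella held near the embryo's level, 19.4 ± 3.097 against 22.5 ± 2.98, as was Nebl with 13.8 ± 3.905 against 12.5 ± 1.76.

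**Figure D1:**
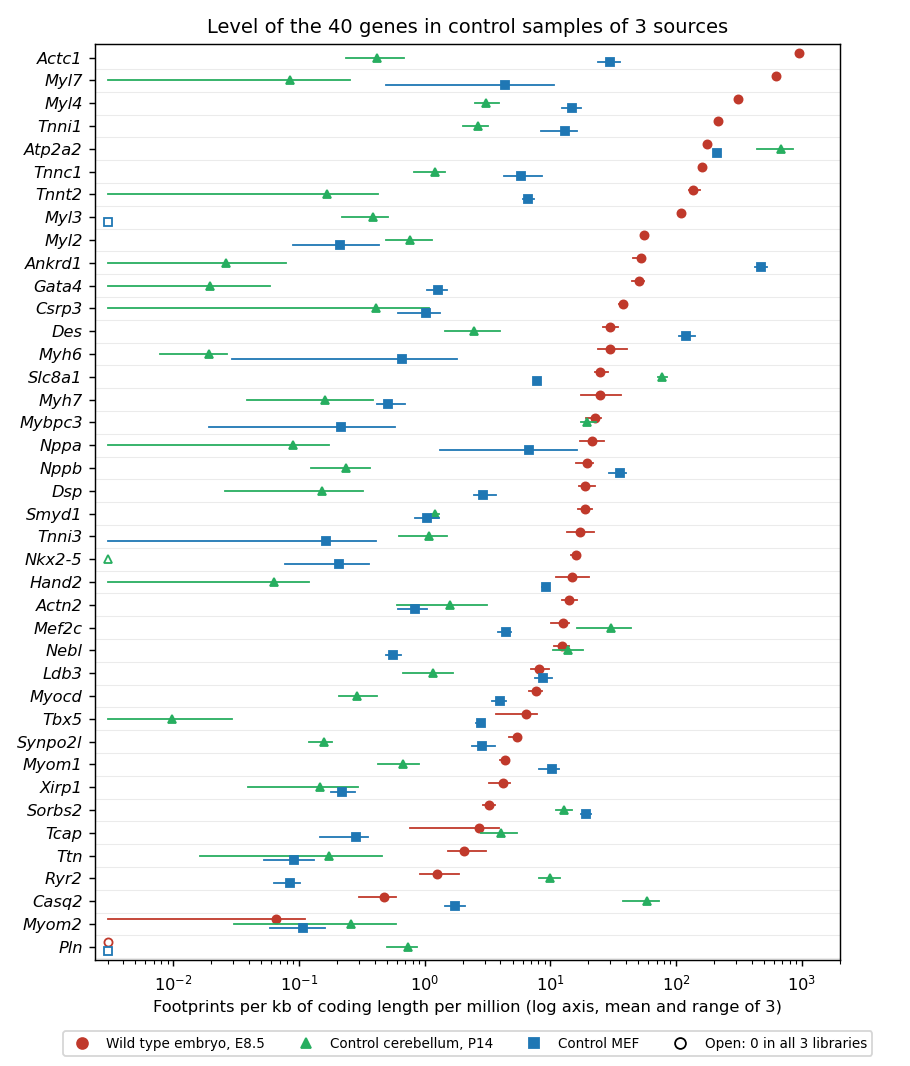
Footprints in CPM per kb of coding length (log axis) for the 40 genes in control samples, as the mean (symbol) and range (line) of 3 libraries each of wild-type embryos, control cerebella and control MEFs; a line that reaches the left end marks a library at 0, and open symbols mark 0 in all 3. Actc1 and Myl7 lead in embryos, Ankrd1 and Atp2a2 in MEFs, and Atp2a2, Slc8a1 and Casq2 in cerebella.

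As a share of all counted footprints, the 40 genes took 0.374%, 0.436% and 0.383% in the wild-type embryo libraries and 0.267%, 0.212% and 0.252% in the Hbs1l-/- libraries. The groups do not overlap. In MEFs the share was 0.160%, 0.176% and 0.160% in the controls and 0.0938%, 0.106% and 0.115% in Hbs1l mutant libraries, again without overlap. In cerebella the libraries ran from 0.200% to 0.350% in controls and 0.163% to 0.238% in mutants, and Atp2a2 alone made up 69.0% to 77.2% of those footprints.

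The first comparison asked what became of the cardiac program in Hbs1l-/- embryos. Of the 40 genes, 36 had enough counts to be tested, 19 fell and 1 rose past the threshold used throughout, an adjusted p of 0.05 or less in edgeR's quasi-likelihood fit of 11416 genes; among all genes tested, 0.955% fell and 0.92% rose. The median log2 fold change of the 36 was -0.91 against 0.01 over all genes, and 32 of the 36 were below 0. All 7 thick filament genes, 5 of 6 thin filament genes and 5 of 10 tested genes of titin, the M-band and the Z-disc fell, while none of the 6 regulators and none of the 3 tested calcium genes passed the threshold. The thin filament count includes Tnni3, and the 19 falls include Tnni3 and Nppa. Both passed the low-count filter only through the wild-type libraries, which leaves 18 of the 20 calls. The mutant libraries lay below all wild-type libraries for 26 of the 36 genes, against 12.3% of all genes tested. In whole embryos, fewer cardiomyocytes and less RNA or translation per cardiomyocyte cannot be told apart.

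Values are given below in CPM after TMM scaling, in the order of libraries 1, 2 and 3, and changes as log2 fold change ± standard error. Mybpc3, whose protein tethers myosin to the thick filament backbone, had 35.99, 29.9 and 26.9 CPM in Hbs1l-/- embryos and 91.7, 99.6 and 76.9 in wild type (-1.52 ± 0.18, adjusted p = 0.000912). It had the lowest adjusted p of the 40 genes. Myl2, the ventricular regulatory light chain, had 12.9, 8.56 and 27.2 CPM against 45.04, 49.2 and 45.7 (-1.58 ± 0.32, adjusted p = 0.0257). Its wild-type libraries lay within a few CPM of each other, and Hbs1l-/- library 3 was the highest of the mutants. Myl3, the ventricular essential light chain, had 34.1, 21.1 and 41.7 against 69.1, 65.9 and 72.6 CPM (-1.105 ± 0.22, adjusted p = 0.0254).

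Myl4, its atrial and embryonic counterpart, had 121, 72.2 and 119.7 against 190.0, 209 and 207 CPM (-0.96 ± 0.19, adjusted p = 0.0237). The smallest thick filament change was that of Myl7, with 236, 149 and 229.7 against 343, 330.1 and 342 CPM (-0.72 ± 0.17, adjusted p = 0.0462). Its call held in 5 of 6 alternatives that kept all libraries and in 1 of 6 fits with 1 library left out. In Myl3, Myl4 and Myl7, Hbs1l-/- library 2 was the lowest. The motor genes moved less than Mybpc3: Myh7 had 78.4, 64.2 and 77.3 against 106, 217 and 126 CPM (-1.04 ± 0.23, adjusted p = 0.0383), and Myh6 95.9, 92.4 and 104 against 144, 245 and 144 (-0.88 ± 0.20, adjusted p = 0.0421). Wild-type library 2 was far above the others for both. The coding sequences of this neighbouring pair share 36.5% and 36.6% of their windows of 28 bases with other transcripts, so that footprints may be divided between them with error.

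On the thin filament, Tnni3 had 3.83, 2.01 and 2.18 CPM in Hbs1l-/- embryos and 20.1, 12.2 and 13.8 in wild type (-2.42 ± 0.39, adjusted p = 0.007), so that the highest mutant library held less than the lowest wild-type library by a wide margin. Tnni1, the paralogue used before Tnni3 in the heart, had 84.3, 47.1 and 52.6 against 123, 133 and 119 CPM (-1.01 ± 0.21, adjusted p = 0.0267). Actc1 had 577, 396 and 640.4 against 1085, 1123 and 1146 CPM (-1.06 ± 0.17, adjusted p = 0.00723), the change with the most footprints behind it. Tnnt2, the tropomyosin-binding troponin, had 77.4, 64.4 and 61.3 against 128, 154 and 128 CPM (-1.005 ± 0.16, adjusted p = 0.00723). Tnnc1, the calcium sensor of the complex, had 44.5, 35.5 and 48.98 against 85.3, 75.3 and 81.5 CPM (-0.91 ± 0.17, adjusted p = 0.0226). Every one of these separated the groups. The nebulin relative Nebl overlapped between them, at 37.98, 38.5 and 25.03 against 37.9, 49.9 and 44.98 CPM (-0.38 ± 0.21, adjusted p = 0.343).

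Titin and the actin cross-linker of the Z-disc fell further than most filament genes. Ttn had 56.7, 55.9 and 111 CPM in Hbs1l-/- embryos and 180.5, 356 and 177 in wild type (-1.7 ± 0.29, adjusted p = 0.0117). Mutant library 3 and wild-type library 2 stood apart from their groups, both upward. Actn2, α-actinin of striated muscle, had 9.49, 6.796 and 18.5 against 34.4, 38.5 and 44.98 CPM (-1.81 ± 0.31, adjusted p = 0.00945), with mutant library 3 again the highest of its group. Csrp3, the muscle LIM protein of the Z-disc, had 11.5, 6.796 and 6.53 against 23.3, 23.3 and 21.2 CPM (-1.404 ± 0.29, adjusted p = 0.0268). Smyd1, a methyltransferase needed for myosin assembly, had 17.7, 11.8 and 11.2 against 27.6, 29.9 and 35.8 CPM (-1.16 ± 0.25, adjusted p = 0.0325).

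Ankrd1 had 34.01, 31.96 and 26.5 against 46.6, 57.8 and 57.7 CPM (-0.802 ± 0.19, adjusted p = 0.0457), and Des 25.5, 16.4 and 20.3 against 38.3, 42.3 and 50.3 (-1.06 ± 0.22, adjusted p = 0.028). Both separated the groups. Myom1, Ldb3, Synpo2l, Sorbs2 and Xirp1 missed the threshold, with log2 fold changes from -1.23 (Synpo2l) to -0.66 (Sorbs2) and adjusted p from 0.0813 to 0.293, although the groups of each did not overlap. Desmoplakin, the desmosome protein that epithelia also use, gave 182, 244 and 199 CPM against 158, 201 and 150.5 (0.29 ± 0.16, adjusted p = 0.347), with overlapping groups.

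The natriuretic peptides went opposite ways. Nppa, the atrial peptide and a marker of the working chamber, had 1.27, 1.01 and 3.27 CPM in Hbs1l-/- embryos and 9.48, 8.11 and 12.8 in wild type (-2.55 ± 0.49, adjusted p = 0.0226). Nppa and Tnni3, with 22 and 41 counts over the 3 mutant libraries, passed the low-count filter (about 2.98 CPM in 3 libraries) only through the wild-type libraries, where they are high, so their falls are given as values, and the other 18 called members had every library of their lower group over that limit. Nppb, its neighbour on chromosome 4 and a gene induced by wall stress, had 39.96, 19.6 and 27.9 against 8.296, 7.86 and 6.02 CPM (1.99 ± 0.31, adjusted p = 0.00549) and was the one member that rose. Each separated the groups, in opposite directions. The genes lie at chr4:148000722-148002079 for Nppa and chr4:147985788-147987205 for Nppb (Gencode M21, GRCm38, both on the plus strand).

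No calcium handling gene passed the threshold. Atp2a2 had 659, 685 and 492 CPM in Hbs1l-/- embryos and 567, 606 and 543 in wild type (0.097 ± 0.15, adjusted p = 0.763). The ryanodine receptor Ryr2, the calcium release channel, had 12.9, 14.6 and 12.3 against 15.01, 29.1 and 14.2 CPM (-0.57 ± 0.30, adjusted p = 0.325). Both overlapped. Slc8a1 lay lower in all mutant libraries, at 54.1, 44.05 and 40.6 against 73.9, 86.95 and 69.1 CPM (-0.72 ± 0.18, adjusted p = 0.0549), just outside the threshold; Myl7, at an adjusted p of 0.0462, was just inside it. Casq2, Tcap and Myom2 stayed below 3 CPM in every embryo library and were not tested.

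Of the regulators, Nkx2-5, the homeodomain factor of cardiac progenitors, had 13.3, 6.54 and 3.99 CPM against 16.2, 16.7 and 14.5 (-0.91 ± 0.37, adjusted p = 0.211). It was the one regulator whose groups did not overlap, with mutant library 3 the lowest. Gata4, which endoderm also expresses, had 76.4, 60.7 and 48.98 against 76.6, 61.4 and 70.5 CPM (-0.15 ± 0.19, adjusted p = 0.703). Hand2 had 10.1, 5.29 and 11.2 against 9.09, 13.7 and 7.44 (-0.21 ± 0.37, adjusted p = 0.794) and Tbx5, the T-box factor of the atria and left ventricle, 14.03, 4.78 and 11.97 against 5.93, 12.4 and 12.4 (-0.001 ± 0.41, adjusted p = 0.999). These groups overlapped. Mef2c had 24.5, 19.9 and 19.2 against 16.6, 22.6 and 22.3 CPM (0.05 ± 0.23, adjusted p = 0.921), and Myocd, the SRF coactivator, 24.4, 23.2 and 11.97 against 24.1, 20.8 and 26.6 (-0.23 ± 0.27, adjusted p = 0.677).

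**Figure D2:**
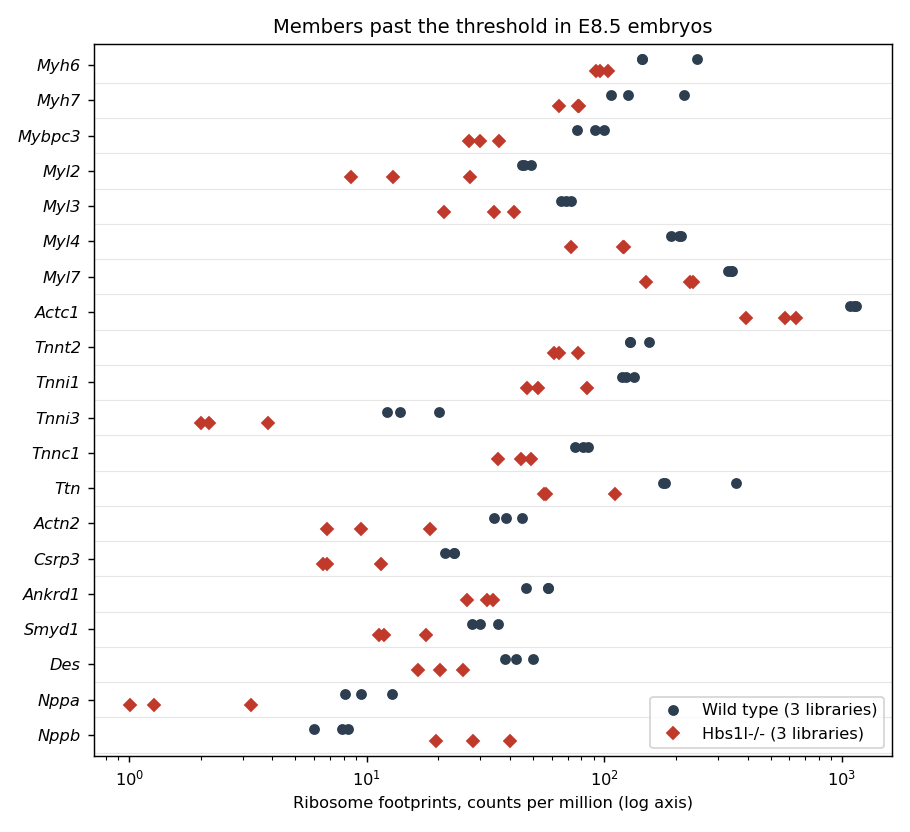
Footprints in CPM (log axis) in each of 3 wild-type (circles) and 3 Hbs1l-/- (diamonds) embryo libraries for the 20 genes past the threshold. In each row the 2 groups do not overlap, and Nppb is the only row in which the Hbs1l-/- libraries lie to the right.

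Because these genes fell together, their promoters were read from RefSeq (GRCm38.p6, 250 bases before to 50 bases after the start), where 33 of the 40 genes matched. Shares are per symbol. The 33 members had 47 promoters and all symbols 32841, so that a member had more promoters on average in which to hold a motif. The CArG box, bound by SRF, was held by 6 of the 33 (18.2%, against 1.81% of 27018 symbols with a promoter): Actc1, Ldb3, Myl3, Myl7, Myom1 and Nebl. The MEF2 site was held by 4 (12.1% against 3.7%): Casq2, Mybpc3, Synpo2l and Ttn. GATAA stood in 48.5% against 28.4%, TATAAA in 24.2% against 15.7% and the E-box CANNTG in 90.9% against 75%, all as exact matches on either strand, each motif searched on its own so that matches may overlap. These are matches of letters and not binding sites. Ldb3, Myom1, Nebl and Synpo2l, which hold a CArG box or MEF2 site, did not pass the threshold in embryos, and Casq2 was not tested there. The 4 promoters below belong to the genes with the lowest adjusted p in embryos among those that hold either motif, 5′ to 3′ on the strand of the gene, with the matched motif in capitals: a MEF2 site from -90 to -81 in Mybpc3 and from -166 to -157 in Ttn, and a CArG box from -47 to -38 in Actc1 and from -85 to -76 in Myl3, counted from the RefSeq start.
Mybpc3 (chr2:91117894-91118193, plus strand): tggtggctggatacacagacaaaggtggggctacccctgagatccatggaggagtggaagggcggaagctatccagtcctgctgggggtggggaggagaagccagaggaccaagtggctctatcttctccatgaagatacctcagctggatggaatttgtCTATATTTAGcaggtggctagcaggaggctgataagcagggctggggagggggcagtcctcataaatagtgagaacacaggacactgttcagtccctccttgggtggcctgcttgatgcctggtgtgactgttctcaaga
Actc1 (chr2:114052826-114053125, minus strand): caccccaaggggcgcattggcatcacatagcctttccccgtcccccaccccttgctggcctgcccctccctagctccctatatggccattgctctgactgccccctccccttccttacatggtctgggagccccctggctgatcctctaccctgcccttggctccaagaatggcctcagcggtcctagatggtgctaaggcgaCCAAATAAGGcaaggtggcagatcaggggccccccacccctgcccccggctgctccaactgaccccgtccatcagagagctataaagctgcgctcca
Ttn (chr2:76982498-76982797, minus strand): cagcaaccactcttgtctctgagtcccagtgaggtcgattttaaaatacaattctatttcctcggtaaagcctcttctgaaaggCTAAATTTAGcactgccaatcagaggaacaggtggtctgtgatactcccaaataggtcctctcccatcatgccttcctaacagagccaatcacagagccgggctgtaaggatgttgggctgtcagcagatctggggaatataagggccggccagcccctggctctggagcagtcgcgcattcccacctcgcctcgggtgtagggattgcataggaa
Myl3 (chr9:110763428-110763727, plus strand): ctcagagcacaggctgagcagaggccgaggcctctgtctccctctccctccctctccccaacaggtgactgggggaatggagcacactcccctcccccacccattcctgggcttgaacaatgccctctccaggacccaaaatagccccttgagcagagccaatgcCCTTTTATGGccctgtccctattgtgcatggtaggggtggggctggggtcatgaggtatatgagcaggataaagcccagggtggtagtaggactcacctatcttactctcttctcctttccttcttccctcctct

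Ratios of 2 genes within a library do not depend on its scaling and were compared for 6 pairs by exact two-sided permutation tests, in which 3 against 3 libraries cannot go below p = 0.1 (0.2 after adjustment over the pairs). The log2 ratio of Tnni3 to Tnni1 was -4.44, -4.46 and -4.48 in Hbs1l-/- embryos and -2.60, -3.44 and -3.09 in wild type, and Nppa to Nppb gave -4.89, -4.12 and -3.03 against 0.19, 0.05 and 1.06. As Tnni3 and Nppa passed the low-count filter only through the wild-type libraries, these 2 ratios are values, with no test read. Myl2 to Myl7, ventricular to atrial light chain, gave -4.19, -4.10 and -3.07 against -2.92, -2.74 and -2.90, a difference of -0.93 (exact p = 0.1), with groups that did not overlap. Myh6 to Myh7 differed by 0.14 (exact p = 0.3) and Tnnt2 to Actc1 by 0.07 (exact p = 0.9), with overlap. Myom2 to Myom1 rested on libraries with 0 counts of Myom2 and is not read.

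The count of embryo calls depended on single libraries. Left out one at a time, the libraries other than Hbs1l-/- library 1 brought the count of genes past the threshold from 20 to between 2 (without wild-type library 2) and 12 (without Hbs1l-/- library 3), with 28 and 107 genes called among all, 4 and 6 without wild-type libraries 3 and 1 and 7 without Hbs1l-/- library 2, while leaving out Hbs1l-/- library 1 raised it to 26 (2309 among all). All 20 kept their direction in each of these fits, and Mybpc3 passed the threshold in every one.

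Markers of several other cell types moved in the embryo as well, and the part of these values in the result was not tested. Of 7 tested trophoblast markers 5 rose, and the 16 listed summed to 334 to 1240 CPM in Hbs1l-/- embryos against 38.3 to 49.7 in wild type. No count was found for 3 of the 16. Prl2a1, Prl2c2, Prl3d1 and Prl4a1 averaged 0.54, 0.13, 2.51 and 2.14 CPM in wild type. They passed the low-count filter only through the Hbs1l-/- libraries, which leaves Prl7a1 (15.67 CPM in wild type) among the calls. Of 12 erythroid markers 5 fell, with sums of 3246 to 8818 against 13320 to 17380 CPM, and the skeletal muscle markers summed to 44.3 to 65.7 against 125.2 to 125.7 CPM, of which Acta1, an α-actin that the early heart also uses, was the 1 of 5 tested that fell (log2 fold change -1.51). Of 11 fibroblast markers 2 fell (sums of 786 to 983 against 1123 to 1241 CPM), of 9 smooth muscle markers 1 fell (615 to 725 against 878 to 940.3) and of 13 neural markers 2 fell (560 to 798 against 799.6 to 918), while of 14 endothelial markers 2 rose (828 to 985 against 722 to 760.5). The summed levels of each of these lists did not overlap between the groups. Sums did overlap for visceral endoderm markers (14940 to 30050 against 18050 to 21100 CPM) and paraxial mesoderm markers (240.5 to 393.5 against 290.1 to 358.4). None of the 10 tested in either list passed the threshold. Further cardiac genes, listed apart from the 40, gave fewer calls: of 17 tested genes of cardiac structure none passed the threshold (median log2 fold change -0.52), of 18 channel and calcium genes 1 rose (Atp1b1, 0.87), and of 15 regulators none passed (median 0.20).

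In cerebella, Cre is driven in granule cells and the other mutant cells carry 1 deleted allele of Hbs1l. The question was whether the same genes moved in a tissue without cardiomyocytes. Of the 40 genes 23 were tested, and none passed the threshold (edgeR's quasi-likelihood test; 6 at an unadjusted p under 0.05, where 1936 of all 14430 genes were, and 1 with DESeq2, which called 482 genes), beside 0.00693% of 14430 genes that fell. The median log2 fold change was -0.47 against a value near 0 over all genes, and -0.20 without control library 1, the library with the highest Ttn level. Mutant libraries lay below all controls for 4 of the 23 genes, against 8.91% of all. These 4 were Tnni1, Tnni3, Myom1 and Slc8a1, with Slc8a1, the only abundant one, at 211, 214 and 162 CPM in the mutants and 266, 238 and 216 in the controls (-0.29 ± 0.15, adjusted p = 0.445). Atp2a2 had 1496, 1700 and 1094 against 2820, 2444 and 1413 CPM (-0.64 ± 0.27, adjusted p = 0.356), and Casq2 30.1, 53.5 and 23.6 against 98.04, 83.2 and 48.2 (-1.11 ± 0.34, adjusted p = 0.216). Control library 3 overlapped with the mutants for both. Markers of Purkinje cells, which are not of the granule cell lineage, had a median log2 fold change of -0.84 over 8 genes, with 0 past the threshold.

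Mybpc3 in cerebella had 66.6, 89.8 and 54.5 CPM in the mutants and 72.2, 69.8 and 89.8 in controls (-0.14 ± 0.19, adjusted p = 0.79). Of the 21 members tested in each source alone, it was the 1 whose effect differed between embryos and cerebella in the interaction test over 12 libraries (difference of log2 fold changes, embryo minus cerebellum, -1.37 ± 0.27, adjusted p = 0.0306), where 0.537% of the 10993 genes tested in each source alone were lower (0.465% of all in the fit), and with 1 library left out it passed in 4 of 12 fits, its adjusted p lay between 0.0127 and 0.134 and the difference between -1.52 and -1.17. Ttn was at 2.91, 4.83 and 1.07 CPM in the mutants and 54.7, 4.67 and 1.86 in the controls, and control library 1 alone carried the high value. That library was also the highest of its group for Actn2, at 8.905, 2.93 and 1.64 CPM over the controls. The skeletal muscle markers summed to between 87.8 and 362.5 CPM in control libraries and between 71.7 and 123.5 CPM in mutant libraries. Of 16 tested, 13 had a log2 fold change below 0 (median -1.82), and none passed the threshold. The part of these markers in the result was not tested. Without cerebellum control library 3, 4 members passed the threshold (560 genes among all), and without control library 1 none did.

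MEFs are cultured fibroblasts, and the same list was read there to set it beside the embryo. In Hbs1l mutant MEFs 30 of the 40 genes were tested, and 17 fell and 0 rose; of all 11984 genes 16.7% fell and 17.4% rose. The median log2 fold change of the 30 was -1.37 against -0.01 over all genes, and the groups did not overlap, mutant below, for 20 of the 30, against 22.9% of all genes. By role, 7 of 8 tested genes of titin, the M-band and the Z-disc fell, 3 of 5 thin filament genes, 2 of 4 thick filament genes and both Des and Dsp. These counts include Smyd1, Tnnc1 and Myh7, which passed the low-count filter only through the controls. Casq2 did so too, which leaves 13 of the 17 calls.

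Ankrd1, highest of the 40 per kb in control MEFs, had 119.6, 142 and 202 CPM in Hbs1l mutants and 472, 543 and 427 in controls (-1.63 ± 0.15, adjusted p = 4.31e-06). Sorbs2, an adaptor of stress fibres and Z-discs, had 22.9, 21.9 and 27.7 against 71.3, 87.8 and 74.95 CPM (-1.68 ± 0.11, adjusted p = 3.75e-07). Myom1, the M-band protein myomesin, had 16.9, 13.7 and 20.2 against 54.7, 61.2 and 40.7 CPM (-1.601 ± 0.15, adjusted p = 6.16e-06). In all 3 the highest mutant library lay far below the lowest control. Ldb3, a PDZ-LIM protein of the Z-disc, had 5.38, 7.54 and 9.42 against 21.1, 26.7 and 19.1 CPM (-1.61 ± 0.19, adjusted p = 3.41e-05), and Synpo2l, which bundles actin at the Z-disc, 1.61, 1.01 and 1.42 against 8.07, 11.3 and 7.24 (-2.65 ± 0.26, adjusted p = 7.84e-06). Synpo2l fell most among the members tested in these cells.

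Dsp had 4.61, 7.71 and 4.62 CPM in the mutants and 22.1, 33.2 and 21.3 in controls (-2.26 ± 0.21, adjusted p = 6.06e-06), and Des 69.8, 99.05 and 117 against 164, 206 and 148 (-0.87 ± 0.15, adjusted p = 0.000699). Nppb had 3.92, 4.02 and 7.29 against 13.9, 14.9 and 10.7 CPM (-1.36 ± 0.22, adjusted p = 0.000399). Each of the 3 separated the groups. Actc1 had 7.48, 22.96 and 12.9 against 27.4, 35.8 and 40.5 CPM (-1.38 ± 0.27, adjusted p = 0.00128), with mutant library 2 near the lowest control. Myocd had 7.83, 8.38 and 5.87 against 13.3, 12.9 and 10.3 CPM (-0.74 ± 0.17, adjusted p = 0.00435).

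At lower levels, Myl4 had 1.89, 4.19 and 2.49 against 7.82, 9.45 and 10.9 CPM (-1.84 ± 0.25, adjusted p = 0.000106), Tnni1 2.31, 3.85 and 2.49 against 8.16, 9.45 and 4.73 (-1.45 ± 0.28, adjusted p = 0.00142) and Ttn 1.68, 3.85 and 3.56 against 5.99, 10.4 and 14.8 (-1.87 ± 0.34, adjusted p = 0.000847). Their groups were apart. Myh7 had 0.699, 0.6704 and 1.33 against 2.52, 4.19 and 2.41 CPM (-1.72 ± 0.37, adjusted p = 0.00293), and Tnnc1 0.2796, 0.168 and 1.07 against 2.08, 4.27 and 2.23 (-2.402 ± 0.50, adjusted p = 0.00234). Casq2 had 0.629, 1.01 and 0.355 against 1.82, 2.74 and 2.14 (-1.86 ± 0.40, adjusted p = 0.00264), and Smyd1 0.419, 0.503 and 0.8 against 2.08, 1.68 and 1.34 (-1.55 ± 0.41, adjusted p = 0.00917). These last 4 stood at a few CPM or less in every library. They passed the low-count filter only through the controls, as their mutant libraries alone, with 17 to 29 counts in all, would not have, so their falls are given as values; the other 13 calls had every mutant library over the limit. Of the 17 members that fell only Smyd1 lost its call in any alternative, in 2 of 6 fits with 1 library left out.

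Atp2a2 overlapped between the groups, at 622, 625 and 669 CPM in Hbs1l mutant MEFs and 656, 692 and 686 in controls (-0.09 ± 0.06, adjusted p = 0.292). Tnnt2, which fell in embryos, gave 3.92, 10.9 and 4 against 5.904, 6.403 and 7.15 CPM (-0.19 ± 0.31, adjusted p = 0.681) with overlap. The heart-restricted genes showed single libraries apart from their group rather than a difference between groups: Myh6 had 1.05, 15.8 and 4.8 CPM in the mutants and 0.174, 0.839 and 10.6 in the controls, Myl7 0.2796, 2.85 and 0.889 against 0.261, 0.991 and 5.63, and Nppa 0.1398, 2.68 and 0.8 against 0.608, 1.296 and 7.41. Mutant library 2 and control library 3 carried the high values in all 3 genes. None of them passed the threshold.

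Beside these genes in MEFs, 8 of 10 tested smooth muscle markers fell and 1 rose, with sums of 14020 to 15810 CPM in Hbs1l mutants against 24010 to 27310 in controls; among those with at least 5 CPM, Actg2 (log2 fold change -1.20), Myl9 (-1.02) and Cnn1 (-1.01) changed most. Of 11 tested skeletal muscle markers 8 fell, with sums of 35.9 to 55.3 against 153.0 to 233.5 CPM. Acta1 (-2.28) was the most abundant of them in controls. Myod1, Myog, Myl1 and Tnnt3 averaged 0.33, 0.47, 0.40 and 0.51 CPM in the mutants. They passed the low-count filter (about 0.88 CPM) only through the controls. Of 12 fibroblast markers 11 rose, with sums of 23170 to 27290 against 19280 to 19440 CPM, led by Pdgfra (2.23). Of 5 neural markers 3 fell and none rose (1258 to 1404 against 1560 to 1766 CPM). Of 6 endothelial markers 3 fell and none rose (424.3 to 441 against 440.5 to 510 CPM). Of 5 paraxial mesoderm markers 1 rose and none fell (29.83 to 35.59 against 23.49 to 26.92 CPM). The part of these values in the result was not tested. Of the other cardiac genes, 9 of 12 tested for structure fell and 1 rose, among them Cryab (-1.002), of 10 regulators 7 fell and 1 rose, and of 14 channel and calcium genes 4 fell and 2 rose (median -0.15). Among the structure calls, Mb (0.30 CPM in mutants) and Cmya5 (0.68 CPM in controls) passed the low-count filter only through their higher group.

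The embryo fall was then set against the MEF change. Among all genes tested, 0.955% fell in embryos and 16.7% in Hbs1l mutant MEFs, and the overlap over all genes was not counted. Of the 19 members that fell in embryos and the 17 that fell in Hbs1l mutant MEFs, 9 were the same. They made up 47.4% of the embryo list and 52.9% of the MEF list, with members not tested in the other source counted in both. The 9 were Actc1, Ankrd1, Des, Myh7, Myl4, Smyd1, Tnnc1, Tnni1 and Ttn. Of these, Myh7, Smyd1 and Tnnc1 passed the low-count filter in MEFs only through the controls. Of the 10 that passed in embryos alone, 5 (Csrp3, Mybpc3, Myl2, Myl3 and Tnni3) were too low in MEFs to be tested. Among the 10, Nppa and Tnni3 passed the low-count filter in embryos only through the wild-type libraries. Of the 8 that passed in MEFs alone, 7 were tested in embryos. Casq2, which passed the low-count filter in MEFs only through the controls, was not. Past the threshold in one source and not in the other does not show a difference, so the effects were compared in 1 fit over the 12 libraries, in which the sources have their own baselines. That fit tested 38 members, of which 29 had also been tested in each source alone, and only these were read. Of the 29, 3 were higher in embryos relative to MEFs and 0 lower, beside 4.91% higher and 3.74% lower among the 10515 genes tested in each source alone (4.2% and 3.26% of all 13062 genes in the fit); the median difference was 0.39, and with 1 library left out it lay between 0.14 (without mutant MEF library 1) and 0.59 (without mutant MEF library 2), at 0.19 without control MEF library 3.

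Nppb, which rose in embryos and fell in MEFs, had a difference (embryo minus MEF) of 3.37 ± 0.41 (adjusted p = 0.000308), and Dsp one of 2.55 ± 0.29 (adjusted p = 0.000176). Both passed the threshold in every alternative fit. Ankrd1 fell in both sources and less in embryos, by a difference of 0.85 ± 0.24 (adjusted p = 0.0431, and up to 0.108 in the alternative fits), and it passed in only 8 of 17 of them, 4 of the 12 with 1 library left out among these. Myl3 entered the fit through its embryo counts, with 0 counts in the control MEF libraries, and no difference was read from it. The remaining 26 members did not pass the threshold, and Sorbs2 came nearest with a difference of 0.99 ± 0.30 (adjusted p = 0.0501). With 1 library left out, between 2 and 5 members were higher, at 5 without Hbs1l-/- embryo library 1 or mutant MEF library 3, and 1 was lower without Hbs1l-/- embryo library 1 or control MEF library 3.

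**Figure D3:**
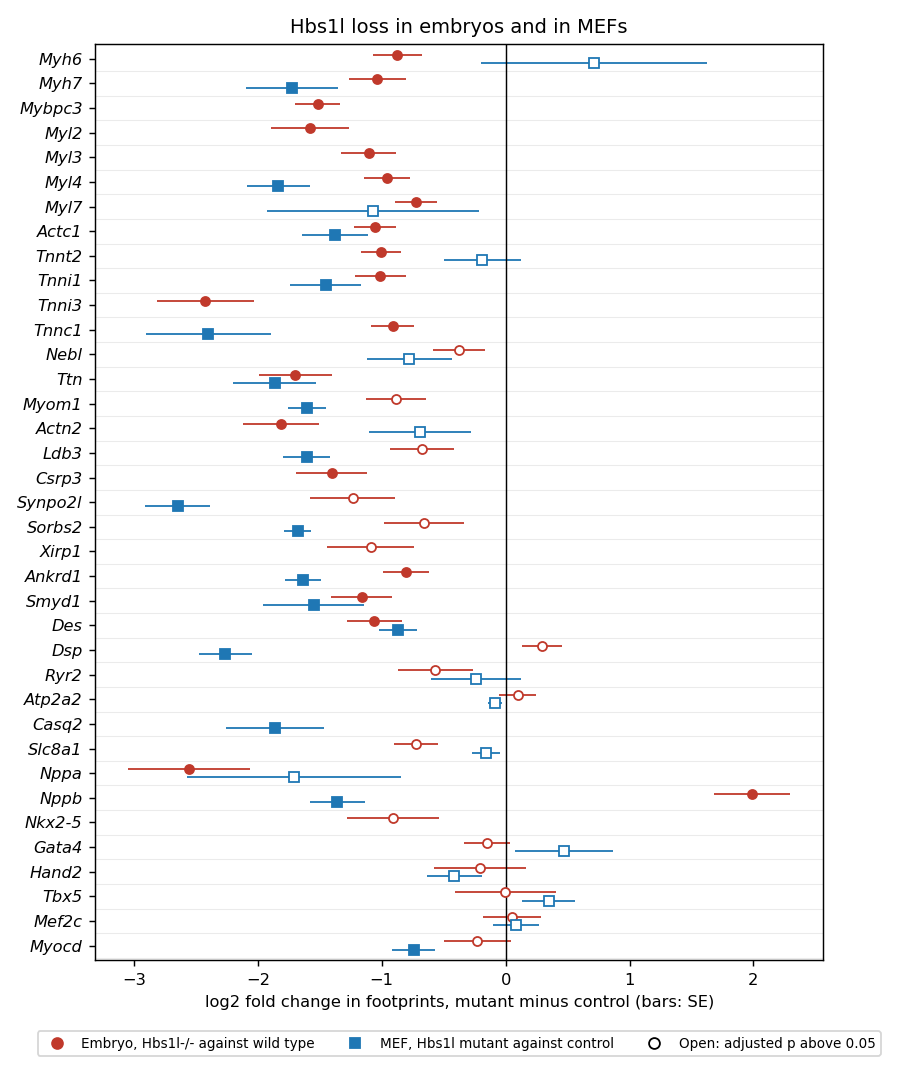
log2 fold change (mutant minus control) with its standard error in footprints of E8.5 embryos (circles, Hbs1l-/- against wild type) and of MEFs (squares, Hbs1l mutant against control), for members tested in at least 1 of them; filled symbols passed the threshold. Nppb lies at 1.99 in embryos and -1.36 in MEFs, and Dsp at 0.29 and -2.26.

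In Pelo mutant MEFs, which share their control samples with the Hbs1l comparison, 20 of 31 tested members fell and none rose, beside 21.2% of 12486 genes that fell and 22.9% that rose; the median was -1.34. Among them were Actc1, Tnnt2, Tnni1 and Tnnc1 of the thin filament and the calcium genes Atp2a2 and Slc8a1. Ankrd1 had 80.2, 99.4 and 48.5 CPM in Pelo mutants and 464, 552 and 449.6 in controls (-2.69 ± 0.21, adjusted p = 8.5e-06). Myom1 had 5.68, 8.88 and 3.84 against 49.2, 57.3 and 44.6 CPM (-3.08 ± 0.23, adjusted p = 6.55e-06), the largest fall of a member in footprints of any source. Sorbs2 had 16.03, 18.4 and 14.6 against 67.9, 91.4 and 70.95 CPM (-2.24 ± 0.13, adjusted p = 1.25e-06). In these 3 all mutant libraries lay far below the lowest control. Ldb3 had 3.77, 5.35 and 3.19 against 21.9, 23.02 and 20.9 CPM (-2.44 ± 0.17, adjusted p = 4.04e-06), and Synpo2l 0.359, 2.13 and 1.19 against 8.45, 10 and 7.31 (-2.81 ± 0.39, adjusted p = 0.00029).

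Nppb had 2.93, 4.99 and 1.84 CPM in Pelo mutants and 14.7, 17.6 and 13.5 in controls (-2.28 ± 0.29, adjusted p = 0.000155), and Myocd 4.43, 4.68 and 4.304 against 13.7, 13.8 and 10.4 (-1.501 ± 0.15, adjusted p = 4.17e-05). Both were well apart. Dsp had 3.65, 19.8 and 7.26 against 22.4, 35.5 and 21.03 CPM (-1.39 ± 0.46, adjusted p = 0.0316), where mutant library 2 came close to the lowest control. Its call was lost with DESeq2 (adjusted p = 0.129) and in 5 of the 6 fits with 1 library left out, all but that without mutant library 2, and its log2 fold change ran from -2.23 to -0.9951. Of the filament genes, Actc1 had 8.61, 21.4 and 20.7 against 26.9, 34.7 and 41.8 CPM (-1.02 ± 0.28, adjusted p = 0.0143), Myl4 2.75, 3.405 and 4.46 against 8.63, 8.87 and 10.5 (-1.38 ± 0.20, adjusted p = 0.00035) and Tnni1 2.51, 2.797 and 3.57 against 8.098, 9.44 and 6.24 (-1.403 ± 0.21, adjusted p = 0.000497). Mutant library 1 was the lowest in each.

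Tnnt2 had 3.23, 3.47 and 5.496 against 6.16, 7.48 and 7.84 CPM (-0.79 ± 0.22, adjusted p = 0.0162), and Ttn 1.79, 4.68 and 5.19 against 5.54, 11.4 and 15.2 (-1.44 ± 0.39, adjusted p = 0.014). The abundant calcium genes fell by less: Atp2a2 had 577, 554 and 541 against 650.1, 703 and 672 CPM (-0.28 ± 0.06, adjusted p = 0.00557) and Slc8a1 17.1, 16.1 and 17.1 against 20.9, 21.4 and 25.2 (-0.43 ± 0.10, adjusted p = 0.00786). Below 5 CPM in every library, Myh7 (log2 fold change -2.19), Ryr2 (-1.67), Nebl (-1.62), Tnnc1 (-1.34) and Casq2 (-1.14) fell too. Nebl overlapped between the groups. Myh7, Nebl, Synpo2l, Ryr2 and Casq2 passed the low-count filter only through the controls, which leaves 15 of the 20 calls. Of the 20 members that fell 14 passed in every alternative; beside Dsp, 1 library left out ended the call of Casq2 in 4 of 6 fits, of Nebl and Tnnt2 in 3 and of Ttn and Actc1 in 1. Of 10 smooth muscle markers 7 fell and 1 rose in these mutants (sums of 12040 to 17330 CPM against 23970 to 27200) and of 12 fibroblast markers 10 rose (25900 to 31480 against 19330 to 19410). Of 14 skeletal muscle markers 5 fell and 1 rose (51.5 to 82.9 against 154.8 to 233.1 CPM). Of 7 neural markers 3 fell and 1 rose (1014 to 1238 against 1539 to 1770 CPM). Of 8 endothelial markers 3 fell and 2 rose (381.3 to 402.3 against 444.6 to 524.6 CPM). Of 4 visceral endoderm markers 1 fell and 2 rose (20.86 to 106.3 against 12.76 to 14.48 CPM). Among these marker calls, Myl1, at 0.36 CPM in the mutants, passed the low-count filter only through the controls. Myh1, Cdh5, Sox18 and Rbp4, at 0.20, 0.58, 0.23 and 0.14 CPM in controls, passed it only through the mutants. The part of these lists in the result was not tested. Des, which fell in Hbs1l mutants, was at 195, 182 and 114 CPM in Pelo mutants and 162, 225 and 146 in controls (-0.12 ± 0.20, adjusted p = 0.651).

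The libraries labelled Upf2 cKO, with the same control samples, gave 13 members lower and 2 higher of 32 tested, beside 21.1% lower and 22.3% higher among 12166 genes. The median was -0.53, and over the members tested in both fits it lay between -1.36 (without labelled library 2) and -0.21 (without labelled library 1 or 3) when 1 library was left out. Over every member each such fit tested, the upper end was -0.13, without labelled library 3. Ankrd1 had 131, 187 and 222 CPM against 462, 544 and 439 in controls (-1.42 ± 0.15, adjusted p = 3.2e-05), Sorbs2 24.2, 22.6 and 26.2 against 69.7, 93.2 and 69.3 (-1.68 ± 0.12, adjusted p = 3.85e-06) and Myom1 12.7, 18 and 24.3 against 51.8, 57.02 and 44.7 (-1.47 ± 0.17, adjusted p = 4.94e-05). The groups of these were apart. Ldb3 had 4.06, 7.25 and 4.13 against 21.4, 24.2 and 20.6 CPM (-2.03 ± 0.19, adjusted p = 1.59e-05), and Synpo2l 1.35, 2.15 and 1.93 against 9.202, 9.06 and 6.29 (-2.12 ± 0.25, adjusted p = 5.7e-05). Nppb had 4.401, 3.76 and 5.24 against 14.7, 16.97 and 13.2 CPM (-1.76 ± 0.17, adjusted p = 2.16e-05), and Dsp 6.77, 8.33 and 5.24 against 22.4, 35.8 and 17.4 (-1.86 ± 0.27, adjusted p = 0.000222).

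Lower by less in those libraries were Myocd, with 6.26, 8.24 and 9.37 against 12.7, 14.8 and 10.3 CPM (-0.65 ± 0.18, adjusted p = 0.0132), and Hand2, a basic helix-loop-helix factor, with 3.89, 4.12 and 3.31 against 5.52, 6.04 and 6.72 (-0.68 ± 0.19, adjusted p = 0.013). Myl4 had 1.86, 6.71 and 2.34 against 7.43, 10.1 and 9.26 CPM (-1.15 ± 0.34, adjusted p = 0.0164). Library 2 of those labelled Upf2 cKO was the highest of its group for Myl4, and it also carried the highest Myh6 value of any MEF library, 2.54, 39.04 and 0.827 CPM over the 3 libraries. Tnni1 (log2 fold change -1.1), Myh7 (-1.26) and Nebl (-0.88) fell as well, and Nebl passed in only 4 of 12 alternative fits (adjusted p up to 0.192). Gata4 rose, with 7.62, 3.22 and 4.69 against 1.98, 1.48 and 1.49 CPM (1.58 ± 0.32, adjusted p = 0.00224). Mybpc3 passed the threshold as well, with 6.09, 7.61 and 4.55 against 0.0708, 0.134 and 2.54 (2.75 ± 0.67, adjusted p = 0.006). In both, every library labelled Upf2 cKO lay above every control. Mybpc3 passed the low-count filter through the libraries where it is high, since control library 3 held 36 of the 39 counts of the controls, so that its value is given and no rise is read from it. Its size was 5.75 without that library, and DESeq2 gave it an adjusted p of 0.111. Of the 15 members called in these libraries 11 passed in every alternative; Myocd and Myl4 each lost the call with 1 library left out. Beside them, 5 of 10 smooth muscle markers fell and 3 rose (sums of 13590 to 18190 CPM against 24290 to 27670), and 10 of 12 fibroblast markers rose and 1 fell. Of 11 skeletal muscle markers 5 fell and none rose (30.98 to 53.6 CPM against 159.6 to 238.1). Of 7 neural markers 3 fell and none rose (1208 to 1381 CPM against 1533 to 1784). Of 6 endothelial markers 3 fell and 1 rose (407.6 to 427 CPM against 439.8 to 515.9). The part of these values was not tested.

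**Figure D4:**
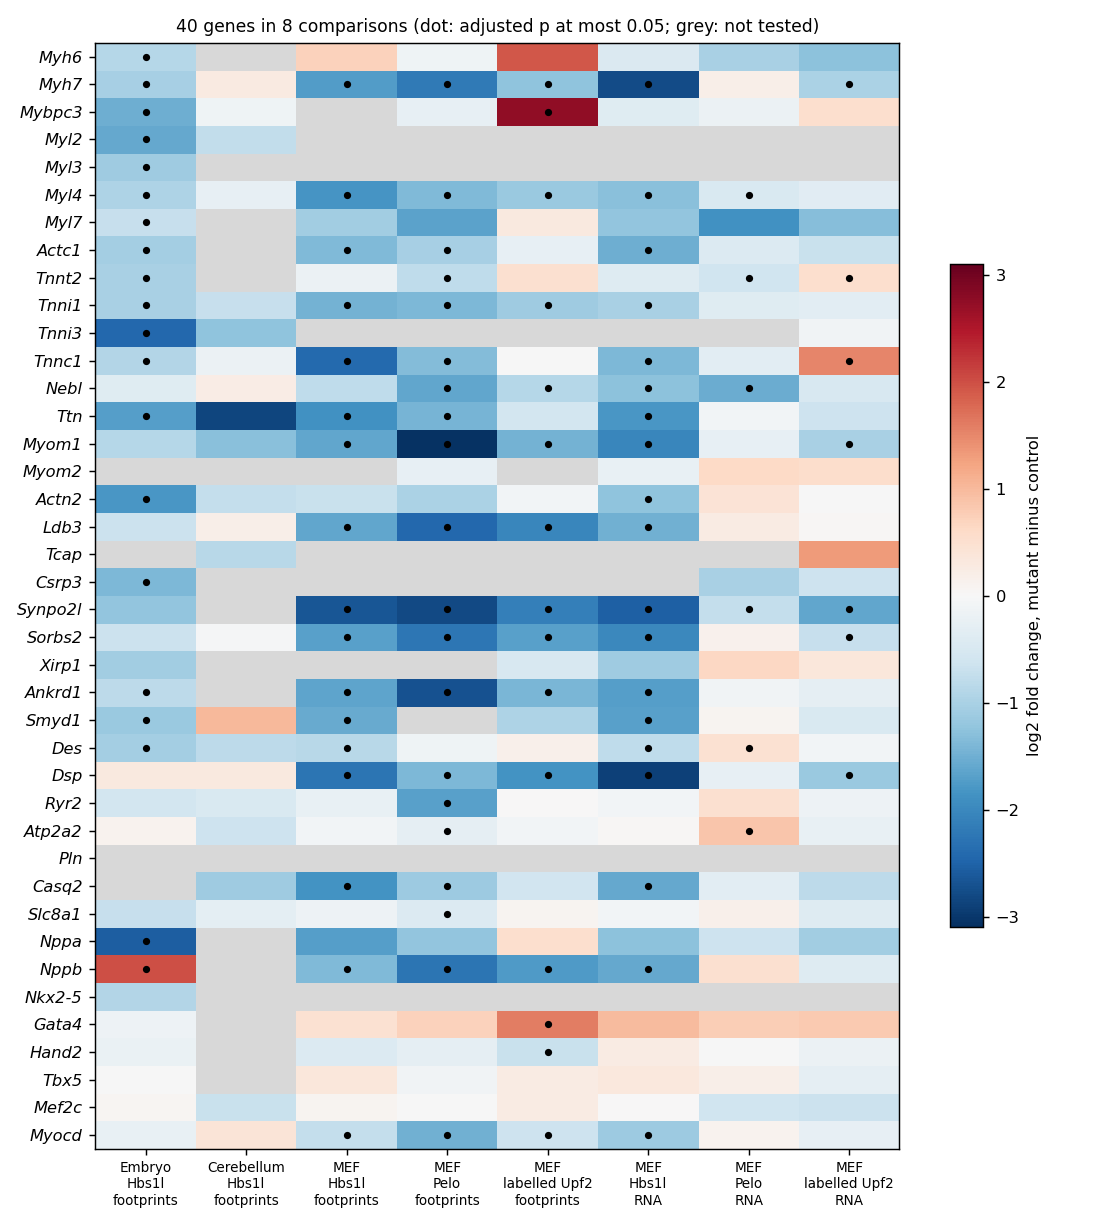
log2 fold change (mutant minus control, colour) of the 40 genes in rows in 8 comparisons in columns, 5 of footprints from embryos, cerebella and MEFs and 3 of RNA from MEFs; dots mark an adjusted p of at most 0.05 and grey marks genes with too few counts to be tested. Synpo2l, Sorbs2, Ldb3 and Myom1 are blue with a dot in all 3 MEF footprint columns, which share control samples, and Nppb is red in the embryo column alone among the footprint columns. In the Pelo footprint column, Synpo2l passed the low-count filter only through the controls.

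**Figure D5:**
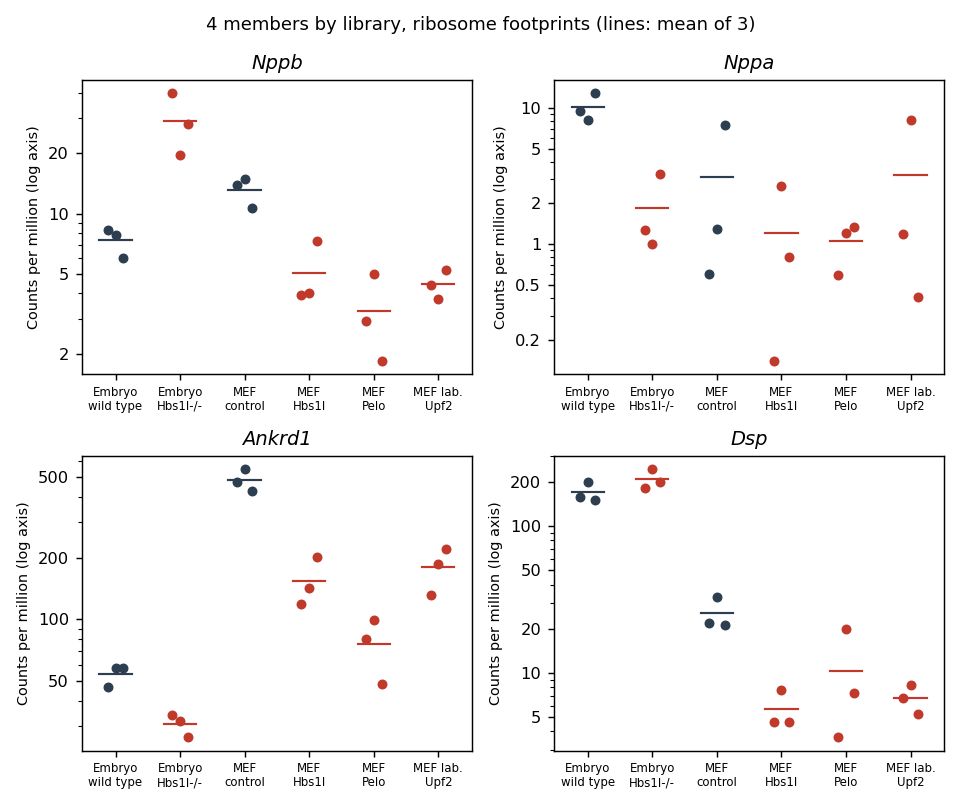
Footprints in CPM (log axis) of Nppb, Nppa, Ankrd1 and Dsp in each library (points, with the mean of 3 as a line), scaled within each comparison; the MEF control shown is that of the Hbs1l pool. Nppb lies at 6.02 to 8.30 in wild-type and 19.6 to 39.96 in Hbs1l-/- embryos, but at 10.7 to 14.9 in control and 3.92 to 7.29 in Hbs1l mutant MEFs.

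RNA was measured in MEFs alone among the sources. In Hbs1l mutants, of 33 tested members 19 fell and none rose, beside 10.4% of 15318 genes that fell and 12.7% that rose; the median was -1.24 against -0.01. In CPM of estimated counts, Ankrd1 had 63.7, 81.8 and 121 in Hbs1l mutants and 332, 277 and 262 in controls (-1.71 ± 0.21, adjusted p = 0.00147). Des had 111, 137 and 192 against 279, 245 and 229.9 (-0.78 ± 0.18, adjusted p = 0.0161). Sorbs2 had 6.72, 8.45 and 7.64 against 30.4, 32.8 and 28.9 (-2.004 ± 0.12, adjusted p = 0.000139), and Myom1 8.25, 7.08 and 8.05 against 29.9, 33.5 and 31.4 (-2.03 ± 0.11, adjusted p = 8.38e-05). Each of them separated the groups, as did Nppb with 2.405, 3.098 and 5.83 against 14.99, 9.12 and 10.4 (-1.59 ± 0.31, adjusted p = 0.00799).

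Dsp RNA fell most, from 8.198, 9.402 and 6.86 CPM in controls to 0.763, 1.16 and 1.24 in Hbs1l mutants (-2.9 ± 0.21, adjusted p = 0.000316). Myh7 had 0.191, 0.406 and 0.175 against 2.06, 2.05 and 1.698 (-2.76 ± 0.33, adjusted p = 0.00144), Synpo2l 1.45, 1.09 and 1.66 against 10.4, 7.23 and 6.51 (-2.53 ± 0.24, adjusted p = 0.000642) and Ldb3 2.86, 3.08 and 3.82 against 9.28, 9.52 and 8.84 (-1.495 ± 0.15, adjusted p = 0.000784). These were apart in every library. Of the filament genes, Actc1 had 2.14, 6.804 and 3.36 against 12.9, 8.34 and 14.8 CPM (-1.503 ± 0.37, adjusted p = 0.0194), Myl4 3.74, 3.27 and 2.84 against 8.99, 7.11 and 8.07 (-1.302 ± 0.16, adjusted p = 0.00147), Tnnc1 1.83, 2.602 and 1.99 against 6.61, 4.86 and 5.68 (-1.39 ± 0.19, adjusted p = 0.00226) and Tnni1 3.13, 4.39 and 5.06 against 10.3, 7.74 and 7.83 (-1.02 ± 0.20, adjusted p = 0.00777). Lower by log2 fold changes between -1.81 (Ttn) and -1.13 (Myocd) were also Smyd1 (-1.68), Casq2 (-1.59), Nebl (-1.26) and Actn2 (-1.24), all under 5 CPM in every library. Smooth muscle marker RNA summed to 12060 to 14460 CPM in Hbs1l mutants against 18790 to 22920 in controls, with 7 of 10 lower, and skeletal muscle marker RNA to 24.6 to 40.5 against 127.5 to 172.7 CPM, with 10 of 17 lower. Neural marker RNA summed to 331 to 372 against 479 to 602 CPM (4 of 8 lower, 1 higher), and 7 of 12 fibroblast markers were higher (6102 to 10140 against 4056 to 6230 CPM). Tnnc2, Mymk and Pax3, at 0.10, 0.26 and 0.16 CPM in Hbs1l mutants, passed the low-count filter only through the controls. The part of these markers in the result was not tested. Myh7, Nebl, Ttn and Casq2 passed the low-count filter only through the controls, which leaves 15 of the 19 calls. Of the 19 members that fell 13 passed in every alternative, and Actn2 lost its call most often, in 4 of 6 fits with 1 library left out. Atp2a2 RNA was 228, 204 and 188 CPM against 178, 229.9 and 196 (0.04 ± 0.12, adjusted p = 0.848).

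In Pelo mutant MEFs fewer members passed in RNA than in footprints. With 2 mutant libraries, 4 of 34 tested members were lower and 2 higher, beside 16.6% lower and 15.5% higher among 14705 genes, and the median was -0.10; whether footprints and RNA differ was not tested. Ankrd1 RNA was 272 and 264 CPM in Pelo mutants and 326, 282 and 261 in controls (-0.11 ± 0.11, adjusted p = 0.455), Myom1 25.9 and 26.7 against 29.4, 34.04 and 31.4 (-0.26 ± 0.10, adjusted p = 0.0842) and Sorbs2 32.3 and 34.5 against 29.9, 33.3 and 28.8 (0.12 ± 0.10, adjusted p = 0.386). Only Myom1 was apart among these, with both mutants below. Past the threshold, Synpo2l had 4.61 and 4.85 against 10.2, 7.36 and 6.49 CPM (-0.75 ± 0.21, adjusted p = 0.0335), Tnnt2 8.23 and 8.41 against 11.4, 11.1 and 15.7 (-0.63 ± 0.17, adjusted p = 0.0319), Myl4 6.08 and 5.42 against 8.83, 7.24 and 8.05 (-0.48 ± 0.14, adjusted p = 0.0356) and Nebl 0.586 and 0.173 against 1.33, 1.12 and 1.01 (-1.54 ± 0.46, adjusted p = 0.0402). Higher were Atp2a2, with 357 and 370.0 against 174, 234 and 195 CPM (0.85 ± 0.12, adjusted p = 0.00362), and Des, with 372 and 322 against 274, 249 and 229 (0.47 ± 0.11, adjusted p = 0.0161). With either mutant library left out, which leaves 1 mutant sample that is assumed to vary like the controls, 1 or 2 members passed. Nebl passed the low-count filter only through the controls. With the replicate block, or without control library 1, 2 of 6 members past the threshold were lower, and of the 6 called 1, Atp2a2, passed in every alternative. Fibroblast marker RNA summed to 8008 to 8069 CPM in Pelo mutants against 3981 to 6339 in controls (1 of 12 higher), neural to 813.6 to 880 against 470.4 to 612.3 (3 of 8 higher, 1 lower), endothelial to 248 to 263 against 153.0 to 213 (2 of 8 higher) and smooth muscle to 17850 to 18120 against 19120 to 22490 (3 of 10 lower); their part in the result was not tested.

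The RNA of the libraries labelled Upf2 cKO gave 5 members lower and 2 higher of 36 tested, beside 6.76% lower and 13.2% higher among 15983 genes, with a median of -0.33. Tnnc1 had 17.6, 13.5 and 18.7 CPM against 6.71, 4.94 and 5.75 in controls (1.52 ± 0.17, adjusted p = 0.000197), and Tnnt2 18.3, 17.4 and 20.7 against 11.8, 11.1 and 15.9 (0.53 ± 0.16, adjusted p = 0.0415). Both troponin genes were higher in all 3 libraries. Synpo2l had 2.33, 2.7 and 2.88 against 10.6, 7.35 and 6.59 CPM (-1.62 ± 0.21, adjusted p = 0.000433), Dsp 5.07, 2.31 and 3.796 against 8.33, 9.55 and 6.94 (-1.16 ± 0.26, adjusted p = 0.0109) and Myom1 18.7, 13.5 and 15.9 against 30.4, 34 and 31.8 (-1.001 ± 0.15, adjusted p = 0.00092). Myh7 (-0.99) and Sorbs2 (-0.71) completed the lower members, and the groups of all 7 did not overlap. Ankrd1 RNA, at 304, 208 and 219.7 against 337, 282 and 265 CPM (-0.27 ± 0.16, adjusted p = 0.239), overlapped, beside its footprint change of -1.42 in MEFs of the same label. Leaving out 1 library gave between 3 members past the threshold (without control library 2) and 11 (without labelled library 3), and of the 7 called Tnnc1 and Synpo2l passed in every alternative, while Tnnt2 passed in 1 of 6 fits with 1 library left out. Beside them, skeletal muscle marker RNA summed to 61.1 to 113.5 against 129.1 to 175.5 CPM (3 of 17 lower) and smooth muscle marker RNA to 14250 to 17580 against 19090 to 23290 (3 of 10 lower), and their part was not tested.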

How the data were processed

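Ribosome-protected fragments (RPF, footprints) and RNA were taken as deposited. The authors clipped and mapped the footprints (Bowtie2 2.2.3 and HISAT2 2.1.0 in the submitters' processing notes, mm10, Gencode annotation) and counted them over coding sequences with featureCounts; the deposited values are raw counts per gene. For RNA, the authors quantified transcripts with kallisto 0.42.4, and the deposited columns are estimated counts and TPM per transcript. Here, the estimated counts of a gene's transcripts were added up and rounded to whole numbers. Gene positions are those of Gencode M21 on GRCm38.

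The 40 genes, their roles and the marker lists were chosen with earlier results of these data known, so no list result is independent support. Counts of the marker and other cardiac lists include calls that passed the low-count filter only through the group where they are high. Groups came from the sample labels. Genes passed edgeR's filterByExpr, 100 histone symbols were left out, libraries were scaled by TMM, and every comparison had a fit of its own (edgeR 4.0.16, quasi-likelihood, R 4.3.3) with Benjamini-Hochberg adjustment over all genes tested; differences between sources were interaction terms of such a fit over 12 libraries. The standard error is the absolute log2 fold change divided by the root of the F statistic. Each p-value sets a change against the spread between libraries, which edgeR estimates with information shared over genes. Embryo libraries are pools of 5, so the spread between single embryos is not seen. Genes were named by a rule: members past the threshold (up to 20 per comparison, by size of change), members of each role with the highest control level, and the regulators in embryos. Ratios of genes used log2 of counts with a pseudocount of 0.5 and an exact permutation test (scipy 1.17.1). Repeated sequence was checked by exact matches of 28-base windows between coding sequences. Depth limits the low genes: at a few CPM a library holds few counts, and a count of 0 allows up to 3 counts.

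Alternatives were DESeq2 1.42.0, RLE factors, library totals only, no low-count filter, histone genes kept, the controls of the 3 MEF pools summed, the replicate number as a block, all RNA libraries in 1 fit, limma 3.58.1 on log2(TPM + 0.5) and each library left out in turn. Figures were drawn with matplotlib 3.10.9, and tables made with pandas 2.3.3 in Python 3.11.15. Differences between footprints and RNA were not tested.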

Additional observations from a re-analysis of the deposited data

Results flagged for a closer look

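Effects of the loss of Hbs1l that differed between sources were marked by the test of the difference itself, an interaction term in edgeR's quasi-likelihood fit with the adjusted p over all genes. Between embryos and MEFs, the difference of log2 fold changes (embryo minus MEF) was 3.37 for Nppb, higher in all 3 Hbs1l-/- embryo libraries and lower in all 3 mutant MEF libraries than in the controls. It was 2.55 for Dsp, which fell in MEFs and whose groups overlapped in embryos, and 0.85 for Ankrd1, which fell in both and passed in only 4 of 12 fits with 1 library left out. The fit also gave -5.97 for Myl3, but its 3 control MEF libraries had 0 counts and it was too low to be tested in MEFs alone, so that no difference is read from this value. Between embryos and cerebella, the difference (embryo minus cerebellum) was -1.37 for Mybpc3, which was lower in all 3 Hbs1l-/- embryo libraries and overlapped between the groups in cerebella; it too passed in 4 of 12 such fits. No explanation of these differences was tested.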

How the results depend on the processing

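The 20 members past the threshold in embryos kept their direction in every alternative run, as did the called members of the other comparisons. With 1 library left out, the count of members past the threshold ran from 2 to 26 in embryos, 0 to 4 in cerebella, 16 to 18, 16 to 19 and 13 to 18 in Hbs1l, Pelo and labelled Upf2 cKO MEF footprints, 16 to 21, 1 to 6 and 3 to 11 in their RNA, 2 to 7 for embryo against MEF and 0 to 3 for embryo against cerebellum. Medians of the members tested in both fits ran from -0.61 to -0.20 in cerebella, -1.36 to -0.21 in labelled Upf2 cKO footprints and -0.14 to 0.0514 in Pelo RNA (over every member each fit tested, the upper end in labelled Upf2 cKO footprints was -0.13 and the lower end in Pelo RNA -0.15), and the differences in log2 ratio from -0.30 to 1.58 for Myom2 to Myom1 and from -0.10 to 0.28 for Tnnt2 to Actc1. Counts between sources are over all 38 members in those fits, 4 and 1; counted over the members tested in each source alone, chosen after seeing the data, they were 3 and 1, with medians of 0.39 (0.14 to 0.59 with 1 library left out) and -0.64 (-0.93 without control cerebellum library 1 to -0.35 without Hbs1l-/- embryo library 3). DESeq2 gave 1 member in cerebella, 8 for embryo against MEF and 3 for embryo against cerebellum. Library totals gave a median of -0.37 in cerebella and 2 members for embryo against cerebellum. Without the low-count filter, 10 members passed in Pelo RNA, 13 in labelled Upf2 cKO RNA, 7 for embryo against MEF and 2 for embryo against cerebellum. In labelled Upf2 cKO footprints 17 passed without it, 12 of them lower, with a median of -0.09 over 39 members. DESeq2 gave a median of -0.15 over 39 members there. Limma on TPM, which fitted fewer members, gave 11 of 19 and a median of -0.90 in Hbs1l RNA. In Pelo RNA it gave 2 of 20, 0 of them lower, and a median of 0.0045. In labelled Upf2 cKO RNA it gave 3 of 18. The causes were not tested.

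Over all genes, the 214 calls in embryos became 417 with DESeq2, 703 without the filter and 564 with the block, and the 9 in cerebella became 482 with DESeq2. Library totals moved the share of lower calls from 33.8% to 17.9% in labelled Upf2 cKO RNA, from 43.7% to 57.9% for embryo against MEF and from 63.6% to 84.7% for embryo against cerebellum.

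Replicate numbers did not pair the samples: correlations of same-numbered deviations were 0.012, 0.012 and 0.035 in embryos and 0.22, -0.24 and 0.04 in cerebella. With the replicate block, 22 members passed in embryos, 0 in cerebella, 17, 21 and 14 in MEF footprints and 16, 6 and 7 in MEF RNA (in Pelo RNA 2 of the 6 lower, against 4 of 6 without it), 4 and 1 differed between sources, and the median in Pelo RNA was -0.0044.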
